A study of Rattus norvegicus with 9 samples.

Results

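The genes described here are 8 serotonin receptor genes of the rat, Htr1a, Htr1b, Htr2a, Htr2c, Htr3a, Htr4, Htr5a and Htr7, found by their symbols among the 18733 genes of the deposited tables. Poly(A)-selected RNA of the hippocampus was sequenced from 9 male rats, 3 in each of 3 groups, with 1 library per rat. The taVNS rats had middle cerebral artery occlusion (MCAO), were found cognitively impaired, and received transcutaneous auricular vagus nerve stimulation, an electrical stimulation of the ear's vagal branch, for 14 days. The PSCI rats (post-stroke cognitive impairment) had the same occlusion and impairment and were kept on normal feeding for 2 weeks. For the taVNS rats 2 weeks of feeding are recorded as well. The control rats were kept on normal feeding, so that occlusion and impairment cannot be told apart in PSCI against control. No strain, age, sham surgery, sham stimulation or side of the brain is given in the labels, and the 2 stroke groups hold only rats that fell under a performance limit of 20% of the control mean. The comparisons address what differs in the hippocampus of impaired rats, and what differs when such rats are stimulated.

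Serotonin reaches the hippocampus through axons of the raphe nuclei in the brainstem, and the receptors on hippocampal cells decide what it does there. All but 1 family of the receptors signal through G proteins: the 5-HT1 and 5-HT5 receptors through Gi/o, which lowers cyclic AMP, the 5-HT2 receptors through Gq, which activates phospholipase C, and the 5-HT4 and 5-HT7 receptors through Gs, which raises cyclic AMP. The exception, 5-HT3, is a cation channel opened by serotonin. In the rodent hippocampus 5-HT1A is known from pyramidal and granule cells, and 5-HT3 from inhibitory interneurons.

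The libraries held 13747389 to 15415694 counts. Genes of neurons that every hippocampal sample should hold (Rbfox3, Snap25, Slc17a7 and 7 others) summed to between 7849 CPM (counts scaled by library size, with the TMM correction for composition) in PSCI replicate 2 and 14135 CPM in taVNS replicate 2, and no gene of any marker list was at 0 in all libraries. 2 libraries stood apart in 11 markers of meninges and fibroblasts, whose summed level was 524 CPM in taVNS replicate 3 and 485 CPM in PSCI replicate 2, against 71.8 to 229 CPM in the other 7. Calls that ended when both were left out are named beside the result.

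None of the 8 receptor genes passed the test in any of the 3 comparisons, and none was too low to judge: every member had at least 52 counts in every library. What the data show instead is a large difference between rats of the same group. Htr2c varied 15.9-fold among the 9 libraries by RPKM (reads scaled by gene length and library depth, as the authors deposited it), and Htr7, Htr3a and Htr2a were high in libraries where Htr2c was high.

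Htr2c encodes the Gq-coupled 5-HT2C receptor, whose RNA is edited and which is abundant in the choroid plexus as well as in neurons. Its level was 27.4, 11.45 and 51.84 RPKM in the taVNS libraries (replicates 1, 2 and 3), 3.27, 33.13 and 5.85 RPKM in the PSCI libraries and 21.46, 36.96 and 48.99 RPKM in the control libraries. PSCI replicates 1 and 3 were the lowest of all 9 libraries, while PSCI replicate 2 was above taVNS replicates 1 and 2 and control replicate 1, so the groups overlapped. The counts behind these values ran from 203 to 3115. In CPM, Htr2c averaged 56.8 ± 65.3 in PSCI and 153 ± 57.4 in control (SD, n = 3 each), a log2 fold change of -1.43 ± 0.80 (SE) with a 95% interval of -3.22 to 0.37 (edgeR quasi-likelihood test, adjusted p = 0.307). The outcome depended on 1 library: without PSCI replicate 2 the log2 fold change was -2.98 (adjusted p = 0.0209), and the gene was also called as lower in PSCI without both PSCI replicate 2 and taVNS replicate 3 (adjusted p = 0.00811). In taVNS it averaged 125 ± 82.2 CPM against 56.8 ± 65.3 CPM in PSCI, a log2 fold change of 1.14 ± 0.79 (adjusted p = 0.454), or 2.70 without PSCI replicate 2 (adjusted p = 0.04) and 2.09 without both libraries (adjusted p = 0.0609). Its fold of taVNS over control was 0.819, with an interval of 0.242 to 2.76, and its log2 fold change was -0.29, or -0.91 without both libraries (edgeR, adjusted p = 1 in either fit). In bulk tissue such as this, fewer cells of a type and less RNA per cell cannot be told apart.

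**Figure D1:**
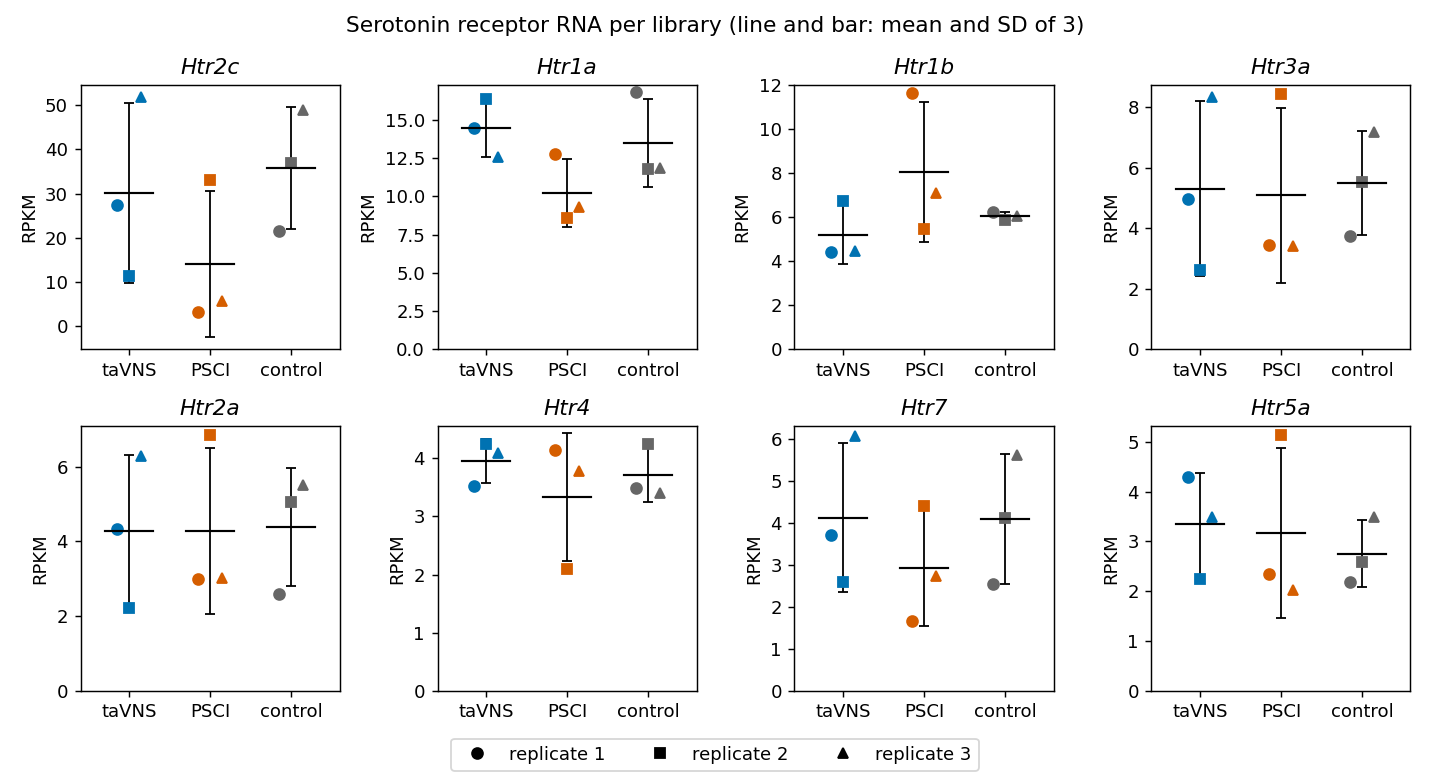
RPKM of the 8 serotonin receptor genes in each library (points, by replicate), with the mean and SD of 3 libraries as line and bar, for taVNS, PSCI and control. Htr2c spans 3.27 to 51.84 RPKM, with PSCI replicates 1 and 3 lowest, and the 3 groups overlap for every gene.

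Htr2a encodes the 5-HT2A receptor, the other Gq-coupled member and the main target of classical psychedelics. It stood at 4.34, 2.21 and 6.28 RPKM in taVNS, 2.98, 6.85 and 3.01 RPKM in PSCI and 2.58, 5.06 and 5.51 RPKM in control. Each group held a low and a high library, and the group means of 4.28 ± 2.04 RPKM in taVNS, 4.28 ± 2.23 RPKM in PSCI and 4.38 ± 1.58 RPKM in control lay within the spread of any 1 group. Its fold of PSCI over control was 0.958, with an interval of 0.491 to 1.87 (edgeR, adjusted p = 0.95).

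Htr1a encodes the Gi/o-coupled 5-HT1A receptor, an autoreceptor on raphe neurons and an inhibitory receptor on hippocampal ones. It was at 14.48, 16.33 and 12.57 RPKM in taVNS, 12.76, 8.56 and 9.32 RPKM in PSCI and 16.83, 11.75 and 11.86 RPKM in control. The 2 lowest libraries were both PSCI, and the third PSCI library lay above the lowest taVNS library and above 2 control libraries. In CPM the means were 14.4 ± 2.27 in taVNS and 10 ± 2.45 in PSCI (SD, n = 3 each). The log2 fold change of taVNS over PSCI was 0.53 ± 0.22 with an interval of 0.02 to 1.03, an unadjusted p = 0.0417 in edgeR's fit that became 0.216 after adjustment over all genes. That of PSCI over control was -0.45 ± 0.22, with an interval of -0.96 to 0.05 (adjusted p = 0.247 in the same fit).

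Htr1b encodes the 5-HT1B receptor, a Gi/o-coupled receptor of axon terminals that restrains transmitter release. It was at 4.4, 6.75 and 4.47 RPKM in taVNS, 11.62, 5.46 and 7.1 RPKM in PSCI and 6.22, 5.86 and 6.06 RPKM in control. The control rats were nearly alike, with an SD of 0.05 on the log2 CPM scale, while the SD was 0.39 in taVNS and 0.59 in PSCI, where replicate 1 was the highest of all libraries. The log2 fold change of taVNS over PSCI was -0.61 ± 0.29 with an interval of -1.26 to 0.03 (edgeR, adjusted p = 0.26), and that of PSCI over control was 0.37 ± 0.29 (adjusted p = 0.467).

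Htr3a encodes the subunit that every 5-HT3 channel needs. Its RPKM was 4.97, 2.61 and 8.35 in taVNS, 3.44, 8.43 and 3.42 in PSCI and 3.75, 5.54 and 7.2 in control. The highest value of all was in PSCI replicate 2 and the lowest in taVNS replicate 2, so the range within a group exceeded the difference between any 2 group means (5.31, 5.1 and 5.5 RPKM in taVNS, PSCI and control). The folds were 0.896 for PSCI over control (interval 0.442 to 1.81) and 1.05 for taVNS over PSCI (interval 0.516 to 2.12).

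Htr7 and Htr4 encode the Gs-coupled members. Htr7 was at 3.72, 2.59 and 6.09 RPKM in taVNS, 1.66, 4.4 and 2.74 RPKM in PSCI and 2.54, 4.13 and 5.64 RPKM in control. PSCI replicate 1 was the lowest library and taVNS replicate 3 the highest, and the fold of PSCI over control was 0.683 with an interval of 0.363 to 1.28 (edgeR, adjusted p = 0.446). Htr4, whose receptor promotes transmitter release and is studied as a memory target, was at 3.52, 4.25 and 4.1 RPKM in taVNS, 4.15, 2.09 and 3.78 RPKM in PSCI and 3.49, 4.25 and 3.4 RPKM in control. A single library, PSCI replicate 2, was low, and the other 8 lay between 3.4 and 4.25 RPKM. Its log2 fold change of PSCI over control was -0.21 ± 0.24, and 0.03 without PSCI replicate 2 and taVNS replicate 3.

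Htr5a, for the Gi/o-coupled 5-HT5A receptor, was the lowest member, with 52 to 128 counts. Its RPKM was 4.29, 2.25 and 3.48 in taVNS, 2.34, 5.13 and 2.02 in PSCI and 2.19, 2.58 and 3.49 in control. PSCI replicate 2 was again apart from its group, and the sign of the difference turned without it: the log2 fold change of PSCI over control was 0.14 ± 0.37, and -0.37 without PSCI replicate 2 and taVNS replicate 3 (edgeR, adjusted p = 0.865 and 0.538).

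**Figure D2:**
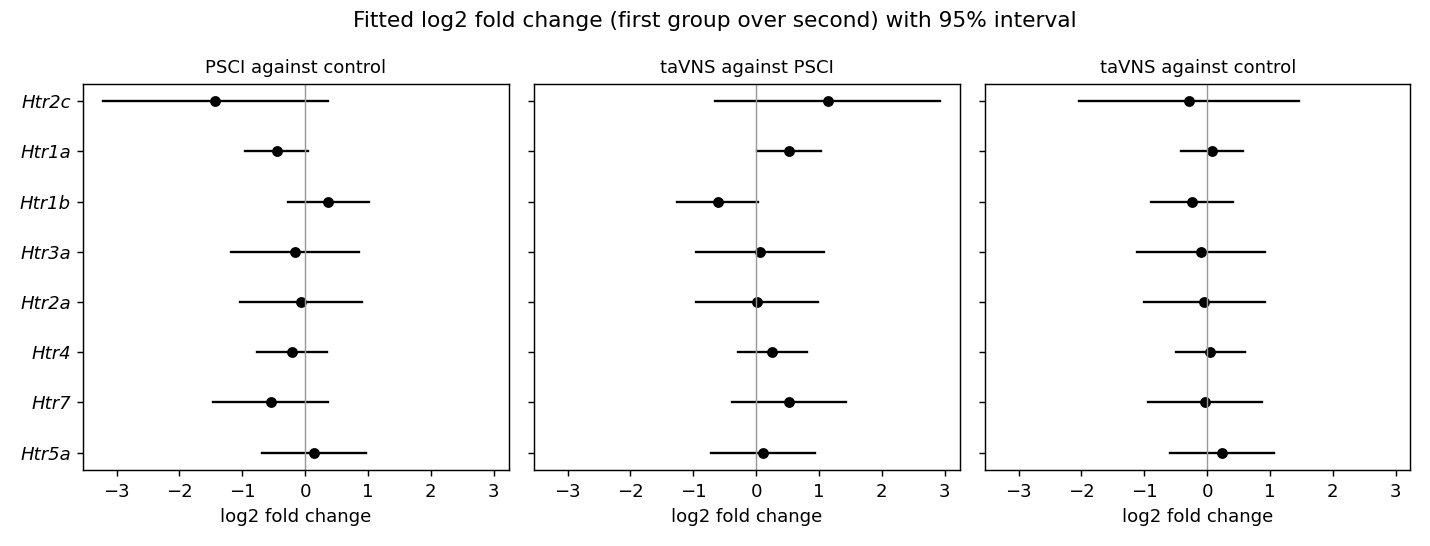
Fitted log2 fold change of each receptor gene (point) with its 95% interval (line) in PSCI against control, taVNS against PSCI and taVNS against control. The interval of Htr2c is the widest in each comparison, and only that of Htr1a in taVNS against PSCI (0.02 to 1.03) leaves out 0.

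Counted over all 8 members, 0 were called in PSCI against control, where 9.85% of the 14840 genes tested were called, 0 in taVNS against PSCI, where 5.75% were called, and 0 in taVNS against control, where 0% were called by edgeR (557 genes had an unadjusted p under 0.05, and DESeq2 called 7). At an unadjusted p under 0.05 in edgeR the members called would be 0, 1 and 0 in the 3 comparisons. The share of all genes tested under that limit was 25.3%, 21.1% and 3.75%. After adjustment DESeq2 and limma on log2 RPKM also called 0 members in each. No member had its 3 CPM values in one group all above or all below those of the other (0 in each comparison), while 27.4% of genes did in PSCI against control, 25.9% in taVNS against PSCI and 11.1% in taVNS against control. The median log2 fold change of the members was -0.19 in PSCI against control, 0.19 in taVNS against PSCI and -0.04 in taVNS against control, beside medians of all genes at 0.00. These comparisons share libraries, so a low PSCI value lowers the first and raises the second.

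By RPKM, which is scaled for length and so can be set side by side between genes, the median level over 9 libraries was highest for Htr2c (27.4), followed by Htr1a (12.57), Htr1b (6.06), Htr3a (4.97), Htr2a (4.34), Htr4 (3.78), Htr7 (3.72) and Htr5a (2.58). Only part of this order held in every library. The lowest Htr1a value, 8.56 RPKM, was above the highest value of Htr3a, Htr2a, Htr4, Htr7 and Htr5a, and the lowest Htr1b value was above the highest of Htr4; every pair of neighbours in the order overlapped. Htr1a exceeded Htr1b in 9 of 9 libraries and Htr3a exceeded Htr2a in 9 of 9, whereas Htr2c exceeded Htr1a in 6 of 9. In the other 3, PSCI replicates 1 and 3 and taVNS replicate 2, Htr1a led. The summed RPKM of the members was 67.12, 48.44 and 97.18 in taVNS, 42.22, 74.05 and 37.24 in PSCI and 59.06, 76.13 and 92.15 in control. Htr2c supplied between 7.7% of that sum (PSCI replicate 1) and 53.3% (taVNS replicate 3).

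The spread among rats of 1 group was large for most members. Over the 3 groups, the SD within groups of log2 CPM was 1.19 for Htr2c, against a median of 0.20 over all genes tested, and only 203 genes of 14840 had a larger one. Among the 4290 genes whose mean log2 CPM lay within 1 of that of Htr2c, 5 had a larger SD. It was 0.65 for Htr3a, 0.64 for Htr2a, 0.59 for Htr7, 0.49 for Htr5a, 0.41 for Htr1b, 0.35 for Htr4 and 0.29 for Htr1a, the last of which was larger than in 67.3% of genes.

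Several members varied together. Across the 9 libraries log2 CPM of Htr2c followed that of Htr7 with Pearson's r = 0.91 and Spearman's rho = 0.93 (exact permutation over all pairings, two-sided, p = 0.00013 and 0.00075, adjusted p = 0.00181 and 0.0184 over the 28 pairs of members), and r was 0.92 without the 2 libraries farthest from the Htr2c median, PSCI replicates 1 and 3. Htr2a followed Htr3a with r = 0.98 and rho = 0.92 (exact permutation, p = 6.06e-05 and 0.00131, adjusted p = 0.0017 and 0.0184), and r = 0.96 without PSCI replicate 2 and taVNS replicate 2. Htr2c followed Htr3a with r = 0.79 and rho = 0.88 (exact permutation, p = 0.0113 and 0.00308, adjusted p = 0.0428 and 0.0287), and r = 0.91 without PSCI replicates 1 and 3. Htr1b ran the other way: its r with Htr2c was -0.83 and rho -0.77 (exact permutation, p = 0.00338 and 0.0214, adjusted p = 0.0301 and 0.0649), and r was -0.74 without PSCI replicate 1 and taVNS replicate 1. Of the 28 pairs, 8 had an adjusted p under 0.05 by r and 3 by rho. The permutations moved libraries freely across the 3 groups, so differences between groups enter these p values. No share over other gene pairs was computed, and the covariation was not confined to receptors: on the second principal component of all genes, which held 20.8% of their variance, the members' r was -0.91 for Htr2a, -0.88 for Htr2c, -0.92 for Htr3a, -0.87 for Htr5a, -0.90 for Htr7 and 0.82 for Htr1b. Measured as deviations from the group means, so that no difference between groups enters, r was 0.91 for Htr2c with Htr7, 0.94 with Htr3a, 0.93 with Htr2a and 0.86 with Htr5a, and it was -0.89 with Htr1b, -0.86 with Htr1a and -0.83 with Htr4. Without that step, r of Htr2c over the 9 libraries was only -0.02 with Htr1a and -0.28 with Htr4 (exact permutation, p = 0.956 and 0.486). All these values share the 9 libraries and their scaling, and are descriptions.

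**Figure D3:**
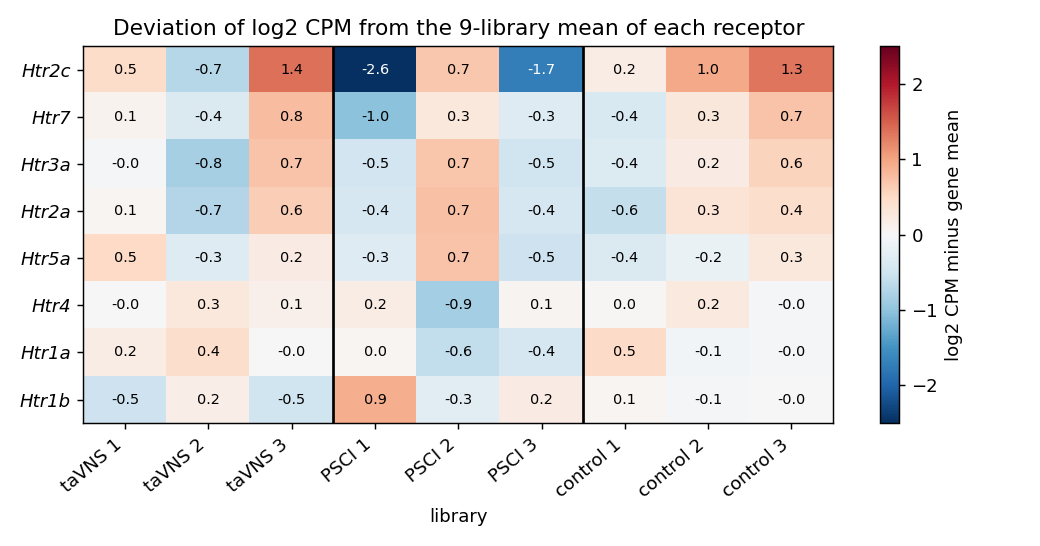
Log2 CPM of each receptor gene in each library minus that gene's mean over 9 libraries (colour and number), with taVNS, PSCI and control separated by lines. Htr2c, Htr7, Htr3a and Htr2a are high together in PSCI replicate 2, taVNS replicate 3 and control replicate 3, and low together in PSCI replicates 1 and 3 and taVNS replicate 2.

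The start regions of Htr2c, Htr7 and Htr1b are shown because the first pair varied together and the third in the opposite direction. A promoter is listed in the RefSeq table of the assembly GRCr8 for 4 of the 8 members, these and Htr5a. The sequences are the 250 bases before the annotated start, 5′ to 3′ on the gene's strand, at chrX:115452940-115453189 (plus strand), chr1:243173049-243173298 (minus strand) and chr8:91414816-91415065 (minus strand) of GRCr8, which is not the build of the counts. Capitals mark matches, on either strand, to 5 motifs searched: the GC box GGGCGG, the nuclear receptor motif AGGTCA, the CCAAT box CCAAT, the cAMP response core TGACG and the E-box CANNTG.
Htr2c: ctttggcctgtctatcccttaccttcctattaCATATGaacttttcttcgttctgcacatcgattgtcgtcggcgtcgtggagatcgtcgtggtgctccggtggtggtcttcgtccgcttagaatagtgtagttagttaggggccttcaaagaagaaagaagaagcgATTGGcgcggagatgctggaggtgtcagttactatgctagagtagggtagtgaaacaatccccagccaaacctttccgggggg
Htr7: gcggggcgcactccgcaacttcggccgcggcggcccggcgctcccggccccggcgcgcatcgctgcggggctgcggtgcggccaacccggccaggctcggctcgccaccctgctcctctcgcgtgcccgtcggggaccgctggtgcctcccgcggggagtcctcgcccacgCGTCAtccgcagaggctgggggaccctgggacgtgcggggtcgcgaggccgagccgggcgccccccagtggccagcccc
Htr1b: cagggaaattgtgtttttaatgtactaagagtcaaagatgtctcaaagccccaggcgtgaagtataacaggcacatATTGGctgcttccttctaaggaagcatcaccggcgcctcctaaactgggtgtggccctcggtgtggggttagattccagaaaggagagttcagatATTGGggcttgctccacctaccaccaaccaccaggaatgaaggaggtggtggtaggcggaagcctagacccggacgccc
The Htr2c window held 1 CCAAT match and 1 E-box match, that of Htr7 1 match to the cAMP response core, and that of Htr1b 2 CCAAT matches. Of 33469 such windows in the table, 34% held a CCAAT match, 65.5% an E-box, 18.2% the cAMP response core, 30.5% a GC box and 14.1% the nuclear receptor motif. No motif of the 5 was in both the Htr2c and the Htr7 window. Base composition differed widely, with 80.8% G and C for Htr7, 50.4% for Htr2c and 52.4% for Htr1b. A match of letters is a description and says nothing of binding.

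Because Htr2c RNA is abundant in choroid plexus, the 12 choroid plexus markers were set beside it. They summed to 14, 9.72 and 14.6 CPM in taVNS, 9.13, 26.2 and 12.2 CPM in PSCI and 10.6, 18 and 7.64 CPM in control. Ttr, the most abundant transcript of that tissue, was at 8.57 CPM or lower in every library. Control replicate 3 combined 208 CPM of Htr2c with 0.367 CPM of Ttr and the lowest choroid plexus sum of the 9 libraries. PSCI replicate 2 combined 132 CPM of Htr2c with 6.12 CPM of Ttr and the highest sum. PSCI replicates 1 and 3 had 13.8 and 24.7 CPM of Htr2c with 0.273 and 0.131 CPM of Ttr. The part of choroid plexus in the Htr2c values was not tested. The sum of 15 interneuron markers was 1220, 1038 and 1258 CPM in taVNS, 907, 1124 and 1065 CPM in PSCI and 1155, 1193 and 1385 CPM in control, with its lowest value in the library lowest for Htr2c. Of these 15 genes 2 fell and 0 rose in PSCI against control, and 1 fell in taVNS against PSCI. Of all genes tested 9.85% and 5.75% were called in these comparisons, so the counts are not set apart from the background. The part of interneurons in the variation was not tested.

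Genes that differ along the long axis of the rodent hippocampus were chosen, and their list trimmed, after values had been seen, and get no test. Genes trimmed from the list are not shown, so the match of those kept with Htr2c is no independent evidence. Nr2f2, a nuclear receptor of ventral hippocampus, was at 42.9, 17.8 and 90.4 CPM in taVNS, 7.57, 95 and 17.6 CPM in PSCI and 27.1, 56.2 and 80.8 CPM in control, so that the 3 libraries below 20 CPM were the 3 lowest for Htr2c. Trhr, the thyrotropin-releasing hormone receptor, known from ventral dentate gyrus of the mouse, was at 6.66, 1.33 and 11.9 CPM in taVNS, 1.23, 15.7 and 1.11 CPM in PSCI and 4.14, 10.6 and 11.1 CPM in control. Wfs1, a marker of dorsal CA1 pyramidal cells in the mouse, ran the other way, with 59.4, 222 and 52.2 CPM in taVNS, 321, 90.3 and 224 CPM in PSCI and 174, 164 and 90.1 CPM in control. The 4 genes Nr2f2, Trhr, Dcn and Grp summed to between 42.5 and 158 CPM in taVNS, 27.7 and 197 CPM in PSCI and 58.9 and 167 CPM in control. Dcn is also a meningeal marker, and its level was 41 CPM in taVNS replicate 3 and 69.4 CPM in PSCI replicate 2. The labels do not say which part of the hippocampus was taken, 50 mg were used per animal, and the part of these genes in the receptor results was not tested.

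**Figure D4:**
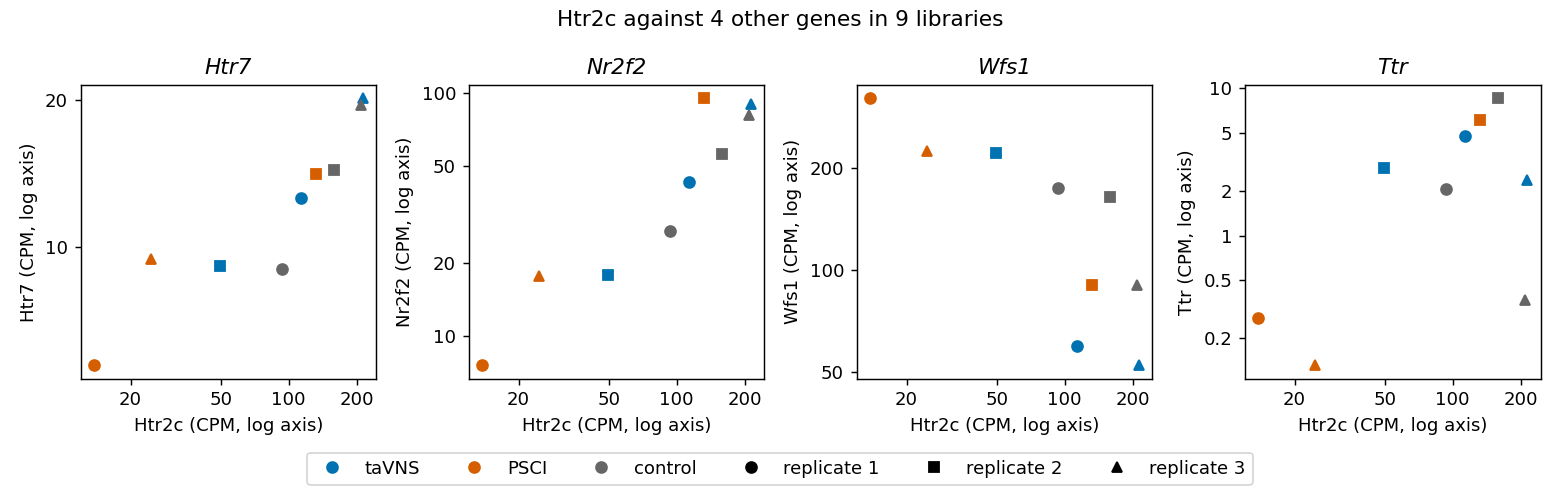
CPM of Htr7, Nr2f2, Wfs1 and Ttr against CPM of Htr2c in the 9 libraries, both axes logarithmic, coloured by group with the replicate as symbol. Htr7 and Nr2f2 are lowest where Htr2c is lowest, Wfs1 is highest in the library lowest for Htr2c (321 CPM), and Ttr stays at or below 8.57 CPM. Nr2f2 and Wfs1 were chosen after values had been seen, so their match with Htr2c is no independent evidence.

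For each member the 2 genes with the most similar log2 CPM across the 9 libraries, among 14225 genes with a mean of at least 1 CPM, were taken by Pearson's r. They were Arnt2 (0.983) and Ldb2 (0.981) for Htr2c, Slc25a22 (0.991) and Cpne7 (0.978) for Htr7, Aspn (0.992) and Gabrq (0.990) for Htr2a, and Htr2a (0.977) and Efna5 (0.967) for Htr3a. For Htr1a they were Rasgef1a (0.966) and Epn3 (0.956), for Htr1b Usp25 (0.966) and Fkbp5 (0.957), for Htr4 Pcsk2 (0.971) and Brsk2 (0.964), and for Htr5a Crocc (0.975) and Krt71 (0.974). Each is the top of a search through all those genes with 9 points, and is given with no p.

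The other 6 serotonin receptor genes in the tables were lower or as variable. Htr5b, a Gi/o-type relative of Htr5a that works in rodents, was at 4.89, 8.87 and 2.62 RPKM in taVNS, 10.19, 0.9 and 6.51 RPKM in PSCI and 10.12, 7.36 and 5.79 RPKM in control. Its lowest libraries, PSCI replicate 2 and taVNS replicate 3, were among the high ones for Htr2c. Htr6, a Gs-coupled receptor, was at 0.92, 1.24 and 0.88 RPKM in taVNS, 1.29, 0.76 and 2.21 RPKM in PSCI and 0.96, 1.24 and 1.1 RPKM in control. Htr1f was below 20 counts on average in every group and so too low to judge by the rule used here. Of the 14 receptor genes it alone had 3 groups all apart from each other. Over all genes tested, 27.4% were apart in PSCI against control, 25.9% in taVNS against PSCI and 11.1% in taVNS against control. The share with all 3 groups apart was not computed. Htr1f had 1.15, 1.26 and 1.23 RPKM in taVNS, 0.6, 0.54 and 0.52 RPKM in PSCI and 0.77, 0.93 and 1.03 RPKM in control. These rest on 18, 21 and 20 counts in taVNS and 10, 9 and 9 in PSCI. The fold of taVNS over PSCI was 2.21 with an interval of 1.41 to 3.47 (edgeR, adjusted p = 0.0529), and limma on log2(RPKM + 0.1) gave an adjusted p = 0.0371. Over all alternatives that adjusted p ran from 0.0253 to 0.233.

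Htr2b, a Gq-coupled receptor, had 0, 1 and 1 counts in taVNS, 3, 15 and 17 counts in PSCI and 2, 0 and 0 counts in control. PSCI libraries held 35 counts in all against 2 in control, a ratio of 16.7 with a 95% counting interval of 4.29 to 143. That interval leaves out the spread between rats. The filter on low counts removed the gene. Without that filter edgeR gave it an adjusted p = 0.0549 in PSCI against control and 0.0729 in taVNS against PSCI. Summed markers of microglia and macrophages, 11 genes, were also highest in these libraries, at 404 to 484 CPM in taVNS, 632 to 973 CPM in PSCI and 303 to 390 CPM in control, and their part in the Htr2b counts was not tested. Htr1d had 1 to 7 counts per library, and Htr3b had 1 count in PSCI replicate 2 and 0 in the other libraries.

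Among proteins that bind or regulate serotonin receptors, 2 of 18 genes rose in PSCI against control and 0 fell, and 2 fell in taVNS against PSCI, with 0 rising. Of all genes tested 9.85% were called in the first comparison and 5.75% in the second, so these counts are not set apart from the background. Both times these were S100a10 and Cav1. The 2 comparisons share the PSCI libraries, so a high PSCI value raises the first and lowers the second. This holds for the genes of the next lists too. S100a10, or p11, an adaptor that binds 5-HT1B and 5-HT4 receptors and brings them to the cell surface, was at 5.75, 8.18 and 10.7 CPM in taVNS, 19.4, 87.7 and 56.7 CPM in PSCI and 9.87, 7.86 and 6.32 CPM in control. Every PSCI library was above every library of the other groups. It rose 6.8-fold in PSCI against control (interval 3.16 to 14.6, edgeR adjusted p = 0.00979). Omitting control replicate 2 or 3 ended this call (adjusted p = 0.0504 and 0.0517). In taVNS it fell to a fold of 0.151 of PSCI (interval 0.0702 to 0.323, adjusted p = 0.0157), which omitting taVNS replicate 1 or 2 ended (0.0822 and 0.0707), as did a fit of those 2 groups alone (0.0636). Cav1, the scaffold of caveolae, which binds 5-HT2A receptors, averaged 46.3 ± 6.72 CPM in PSCI and 29.2 ± 1.45 CPM in control, rising 1.59-fold (edgeR, adjusted p = 0.00963), and was called in all 19 alternatives (adjusted p up to 0.0392). It fell to 28.9 ± 1.31 CPM in taVNS, against 46.3 ± 6.72 CPM in PSCI (adjusted p = 0.0141; 0.0603, 0.0554 and 0.0529 without taVNS replicate 1, 2 or 3, 0.0571 in a fit of those 2 groups alone and 0.0755 without both PSCI replicate 2 and taVNS replicate 3). Beside both genes the 8 astrocyte markers summed to 3491 to 4276 CPM in taVNS, 7936 to 12068 CPM in PSCI and 3104 to 4368 CPM in control, where 3 of the 8 rose in PSCI against control and 3 fell in taVNS against PSCI. Of the microglial markers 8 of 11 rose in PSCI against control, and 5 fell and 1 rose in taVNS against PSCI. The part of either in the S100a10 and Cav1 results was not tested.

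Of 23 genes for G proteins and effectors, 2 rose and 1 fell in PSCI against control, and 0 rose and 2 fell in taVNS against PSCI, beside 9.85% and 5.75% of all genes called in either direction. Gnai2 and Gnai3, inhibitory alpha subunits that Gi/o-coupled receptors use, rose 1.48-fold and 1.39-fold in PSCI against control (edgeR, adjusted p = 0.0273 and 0.0276). Gnai2 averaged 184 ± 7.92 CPM in taVNS, 272 ± 47.3 CPM in PSCI and 183 ± 15.8 CPM in control. Both fell in taVNS against PSCI, with folds of 0.677 and 0.718 (adjusted p = 0.041 and 0.0387). In PSCI against control the libraries whose omission ended a call were each control library and PSCI replicates 2 and 3 for Gnai2, and control replicates 2 and 3 and PSCI replicates 2 and 3 for Gnai3, with adjusted p up to 0.105 for both. In taVNS against PSCI they were all libraries except PSCI replicate 1 for Gnai2 (up to 0.151), and control replicate 2, PSCI replicates 2 and 3 and each taVNS library for Gnai3 (up to 0.155). Without both PSCI replicate 2 and taVNS replicate 3 neither was called, with adjusted p = 0.0751 and 0.133 for Gnai2 and 0.0921 and 0.143 for Gnai3 in PSCI against control and taVNS against PSCI. An edgeR fit of only the 2 groups compared ended these calls too (0.0808 and 0.0977 for Gnai2, 0.0771 and 0.0812 for Gnai3). In taVNS against PSCI so did total count scaling and limma on log2 RPKM. Of 19 alternatives, 8 and 15 ended the Gnai2 calls and 7 and 13 those of Gnai3. Prkar1a, a regulatory subunit of protein kinase A, fell by 0.33 on the log2 scale in PSCI against control (edgeR, adjusted p = 0.046), and omitting any 1 of the 9 libraries ended this call, as did 17 of 19 alternatives in all (up to 0.186).

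Of the 13 listed genes for making, moving and breaking down serotonin 12 were found and 9 tested: 2 rose in PSCI against control and 0 fell, and 0 rose and 1 fell in taVNS against PSCI, again beside 9.85% and 5.75% of all genes. Maob, the monoamine oxidase of astrocytes and serotonin neurons, was at 90.7, 79.7 and 81.4 CPM in taVNS, 131, 108 and 124 CPM in PSCI and 102, 87.3 and 79.1 CPM in control. Its folds were 1.35 for PSCI over control (edgeR, adjusted p = 0.0439) and 0.694 for taVNS over PSCI (adjusted p = 0.0319). All libraries except control replicate 1 and PSCI replicate 2 were needed for the first call (adjusted p up to 0.211), and control replicates 2 and 3, PSCI replicate 3 and each taVNS library for the second (up to 0.142). Both calls also ended without PSCI replicate 2 and taVNS replicate 3 together (0.0513 and 0.0797). A fit of only the 2 groups compared ended both as well (0.101 and 0.0618). The first ended too with the size factors of DESeq2 in edgeR (0.0576) and without the filter on low counts (0.0533). Of 19 alternatives, 11 ended the first call and 8 the second. Slc29a4, the low-affinity plasma membrane monoamine transporter, rose 1.88-fold in PSCI, at 26.9, 18.9 and 27.2 CPM against 14.8, 13.6 and 10.4 CPM in control (edgeR, adjusted p = 0.0381). That call needed each control library, PSCI replicates 1 and 3 and taVNS replicate 1 (adjusted p up to 0.155 when 1 was omitted). Of this list, 2 transcripts of serotonin neurons, named here after their values were seen, were scarce. Tph2, the neuronal synthesis enzyme, averaged 0.84 CPM in taVNS, 3.03 CPM in PSCI and 1.54 CPM in control. Slc6a4, the serotonin transporter, had 0 counts in PSCI and control. Other genes of the list were higher. Slc18a2 averaged 12.6 CPM in taVNS, 12.3 CPM in PSCI and 14.2 CPM in control. Ddc averaged 7.7 CPM in taVNS, 4.86 CPM in PSCI and 5.99 CPM in control. In taVNS against control 0 genes of these 3 lists were called by edgeR, as were 0 of all genes.

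**Figure D5:**
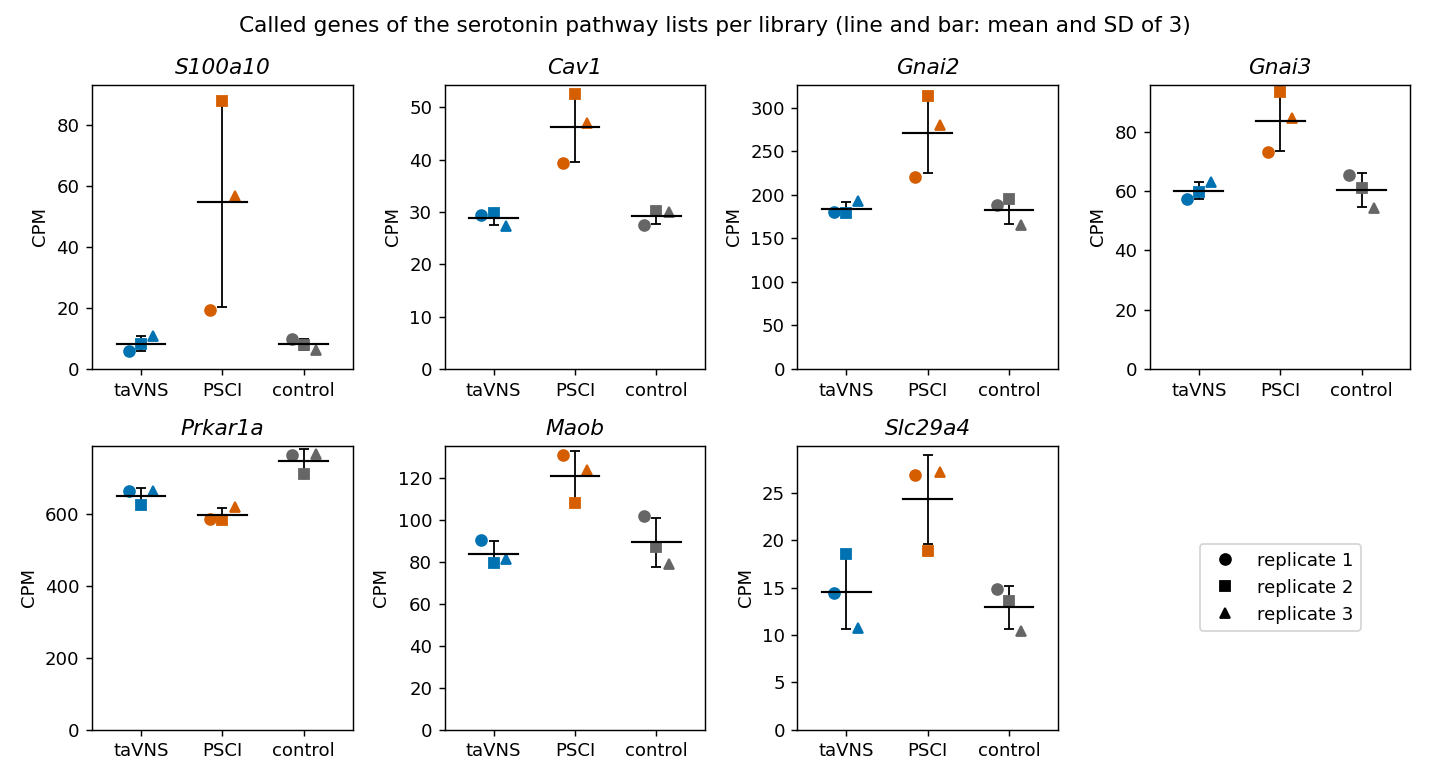
CPM per library of the 7 called genes of the serotonin pathway lists in taVNS, PSCI and control, with mean and SD of 3 libraries as line and bar. S100a10 reaches 87.7 CPM in PSCI replicate 2 and is at 10.7 CPM or lower in every taVNS and control library.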

How the data were processed

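The authors deposited 1 table of estimated counts per gene (not scaled) and 1 table of RPKM (2 decimals) for each of 9 libraries; HISAT2 2.0.4, RSEM 1.2.8 and the build mRatBN7.2 are named per the submitters' processing notes, and the role of each tool, the annotation and the filters are not given in the sources used here. Estimated counts were rounded to whole numbers, filtered with filterByExpr (14840 genes kept) and scaled by TMM. edgeR 4.0.16 (R 4.3.3) gave quasi-likelihood F tests from 1 fit of all 9 libraries on group, with Benjamini-Hochberg adjustment over all genes and calls at an adjusted p under 0.05. Intervals are at 95%. A gene was too low to judge if filtered out or under a mean of 20 counts in every group. Log2 CPM used a prior count of 2. Alternatives used DESeq2 1.42.0 and limma 3.58.1 on log2(RPKM + 0.1), among others. The test was run on simulated data in which all genes shared 1 setting of the spread between rats. That simulation does not cover genes as variable as Htr2c. Counts and RPKM gave the members log2 ratios within 0.031 of each other.

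The members and lists (198 genes, 195 found) were chosen with earlier results of these data known. Named beside the members were the other receptor genes and, per pathway list, up to 4 called genes with the smallest p; other genes named were chosen after their values were seen. Replicates are separate rats. Replicate numbers did not pair the libraries: correlations of same-numbered deviations from group means ran from -0.468 to 0.255. Counting intervals cover counting error only, as the sources used here name no molecular identifiers.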

Additional observations from a re-analysis of the deposited data

How the results depend on the processing

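Of the 456 values of the 8 members under alternatives, 3 were called, all of Htr2c: 2 in fits of PSCI against control and 1 of taVNS against PSCI, each without PSCI replicate 2. With PSCI replicate 2 and taVNS replicate 3 left out together, 1 member was called in PSCI against control, the log2 fold change of Htr4 there was 0.03 and that of Htr5a -0.37, and 361 genes were called in taVNS against PSCI and 1 in taVNS against control. Leaving out 1 library, the members called ranged from 0 to 1 in each of the first 2 comparisons, and all genes called from 548 to 2255, from 172 to 1707 and from 0 to 1 in the 3 comparisons. DESeq2 called 2278, 1560 and 7 genes. With only the 2 groups compared in the fit, 806 and 250 genes were called in the first 2 comparisons. Unfiltered limma on log2(RPKM + 0.1) called 1 gene in taVNS against control. Scaling moved the median of all genes by at most 0.047 (log2).

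A replicate block left 1084, 518 and 0 genes called and 0 members; not every library correlated best with its own number, so the block has no basis in the design. Under it the log2 fold changes of taVNS over control were 0.02 for Htr2a and 0.01 for Htr7, and in PSCI against control Gnai2, Gnai3, Slc29a4 and Prkar1a were not called, nor were Gnai2 (adjusted p = 0.0792) and Gnai3 (0.0845) in taVNS against PSCI. Uncalled differences near 0 turned sign elsewhere too. Htr2a in taVNS over PSCI was -0.01 in limma on log2(RPKM + 0.1) with or without a filter, and -0.00 with 1 added or with scaling by total count, which put Htr7 in taVNS over control at 0.01. Without 1 library, log2 fold changes of PSCI over control ranged from -0.01 to 0.61 for Htr1b, -0.55 to 0.13 for Htr2a, -0.67 to 0.05 for Htr3a, -0.41 to 0.05 for Htr4 and -0.35 to 0.36 for Htr5a. Those of taVNS over PSCI ranged from -0.33 to 0.51 for Htr2a, -0.37 to 0.59 for Htr3a, -0.00 to 0.46 for Htr4 and -0.12 to 0.60 for Htr5a. Those of taVNS over control ranged from -0.05 to 0.28 for Htr1a, -0.41 to 0.23 for Htr2a, -0.91 to 0.09 for Htr2c, -0.55 to 0.21 for Htr3a, -0.03 to 0.14 for Htr4 and -0.39 to 0.26 for Htr7. The cause of these changes was not tested. Total count scaling was chosen after seeing the data. With 3 rats a group the interval of the Htr2c fold in PSCI over control was 0.107 to 1.29.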
